A study of Mus musculus with 28 samples.

Results

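The 10 genes described here make and sense prostaglandins, and were taken by their symbols from the 22919 genes listed in the authors' deposited tables. They are the cyclooxygenases Ptgs1 and Ptgs2, the prostaglandin E synthases Ptges, Ptges2 and Ptges3, the prostaglandin D synthase Ptgds, and the prostaglandin E2 receptors Ptger1, Ptger2, Ptger3 and Ptger4. All 10 had a test in each of the 7 deposited comparisons. Transcription was measured by Bru-seq, in which newly made RNA takes up bromouridine during a short pulse and is then captured and sequenced. The cells were forebrain cultures of neurons, astrocytes and oligodendrocyte precursors, made from the pooled cortices and hippocampi of CD1 mouse embryos at embryonic day 18. All cultures were infected with a lentivirus on day in vitro 14, with an shRNA that targets Rai1 (shRai1), the gene of a chromatin-associated protein, or with a control shRNA (shCtrl). On day 17 they received for 4 h the vehicle (water), 1 µM tetrodotoxin (TTX), a sodium channel blocker that silences firing, or 20 µM bicuculline (BIC), a GABA-A receptor blocker that raises network activity, with 2 mM bromouridine in the last 20 min. The 16 libraries formed 6 groups, of which shCtrl vehicle and shCtrl BIC held 2 libraries and shCtrl TTX, shRai1 vehicle, shRai1 TTX and shRai1 BIC held 3 each.

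Prostaglandins are lipid signals made on demand from arachidonic acid, which phospholipases release from membranes. A cyclooxygenase turns arachidonic acid into the unstable prostaglandin H2, and terminal synthases turn this into prostaglandin E2, D2 and others. In the forebrain Ptgs2 is known as the inducible cyclooxygenase of excitatory neurons, while Ptgs1 is regarded as the constitutive form. Prostaglandin E2 acts on the EP receptors: EP2 and EP4, encoded by Ptger2 and Ptger4, raise cyclic AMP, EP3, encoded by Ptger3, mostly lowers it, and EP1, encoded by Ptger1, raises calcium.

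The promoters of Ptgs2, Ptges3 and Ptges2 are shown because these are the 3 synthesis genes whose transcription passed a test in the comparisons below. Each runs from 250 bases before to 50 after the gene start, in RefSeq's GRCm38.p6 annotation, on the plus strand: Ptgs2 at chr1:150099781-150100080, Ptges3 at chr10:128058732-128059031 and Ptges2 at chr2:32395640-32395939. Capitals mark matches to the motifs searched.
Ptgs2: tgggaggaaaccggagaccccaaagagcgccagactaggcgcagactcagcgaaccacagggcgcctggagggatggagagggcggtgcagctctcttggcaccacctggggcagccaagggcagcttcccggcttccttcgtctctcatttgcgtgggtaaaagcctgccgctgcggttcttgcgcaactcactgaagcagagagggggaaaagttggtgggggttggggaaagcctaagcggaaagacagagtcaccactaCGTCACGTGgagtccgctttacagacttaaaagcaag
Ptges3: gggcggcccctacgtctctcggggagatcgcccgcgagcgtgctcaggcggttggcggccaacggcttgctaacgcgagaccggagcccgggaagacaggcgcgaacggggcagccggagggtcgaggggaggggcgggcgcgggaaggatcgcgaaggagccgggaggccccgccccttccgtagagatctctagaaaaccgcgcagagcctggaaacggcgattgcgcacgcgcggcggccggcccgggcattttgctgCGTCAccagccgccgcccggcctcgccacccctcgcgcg
Ptges2: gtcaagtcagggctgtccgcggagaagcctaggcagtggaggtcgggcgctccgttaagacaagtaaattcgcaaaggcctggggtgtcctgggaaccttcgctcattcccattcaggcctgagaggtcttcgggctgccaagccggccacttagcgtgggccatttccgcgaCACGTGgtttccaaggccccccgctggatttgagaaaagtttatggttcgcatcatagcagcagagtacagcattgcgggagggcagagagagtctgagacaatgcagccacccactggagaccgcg
The search covered both strands for 6 motifs. The cyclic AMP response element was searched as TGACGTCA, and its shorter form separately as TGACG. For the transcription factor AP-1 the letters searched were TGANTCA. For the E-box, which basic helix-loop-helix proteins bind, they were CACGTG. The NF-kappa-B motif is given by its name alone, and the TATA box, found near many gene starts, was searched as TATAAA. A short form inside a full cyclic AMP response element counts for both. In Ptgs2 the capitals hold TGACG, read on the minus strand as CGTCA from +14 to +18, and CACGTG from +17 to +22, which overlap by 2 bases. Ptges3 holds TGACG on the minus strand from +12 to +16, and Ptges2 holds CACGTG from -77 to -72. TGACG was found in 20.8% of 32851 promoters of the same length and CACGTG in 7.15%. Promoters were found for 9 of the 10 genes, and of the others only Ptgds held a match, TGANTCA from -35 to -29, a motif found in 7.81% of promoters. The full cyclic AMP response element (1.79% of promoters), the NF-kappa-B motif (1.63%) and the TATA box (13.6%) were in none of the 9 windows. A match is a string of letters and not a measured binding site.

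The deposited tables hold summaries over libraries, so no value of a single library can be shown and the depth of each library is unknown. Levels come from the authors' deposited table of FPKM, reads scaled to gene length and to library depth, which has 1 pooled value with a lower and an upper bound per condition. Changes come from their deposited comparison tables as log2 changes with a standard error (SE), a p-value and a p-value adjusted over genes, and a gene is said to rise or fall where the adjusted p was under 0.05. Rai1 itself changed in the authors' deposited tables by 0.16 (SE 0.073) in shRai1 vehicle against shCtrl vehicle, by -0.12 (SE 0.064) in TTX and by 0.03 in BIC. It passed the test in none of the 3, so it gives no check of the labels and groups are called here by the library labels. Bru-seq reads newly made RNA, so these values do not give the amount of Rai1 mRNA or protein left. Defining markers followed the labelled culture: in shCtrl vehicle the authors' deposited FPKM had a median of 72.5 over 8 neuron markers, 24.8 over 8 astrocyte markers and 5.65 over 9 oligodendrocyte-lineage markers. The same table gave 1.32 over 10 microglia markers, 0.227 over 6 endothelial and 0.165 over 9 leptomeningeal and fibroblast markers, with C1qc and Aldh1a2 listed at 0. In mixed cultures fewer cells of a type and less RNA per cell cannot be told apart.

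At rest 3 of the synthesis genes stood above all the receptors. Ptges3, a cytosolic prostaglandin E synthase that also serves as the Hsp90 co-chaperone p23, stood highest of the 10 in shCtrl vehicle, at 44.9 FPKM in the authors' deposited table (bounds 34.1 and 55.6). Ptgs2 followed at 14.2 FPKM (10.6 and 17.8) and Ptges2, a membrane-associated prostaglandin E synthase, at 13.5 FPKM (9.35 and 17.7) in the same deposited table. Ptgs2 and Ptges2 stood at percentiles 78.4 and 77.3 of the genes in the authors' deposited table. Next in that authors' deposited table came Ptger1 at 5.57 FPKM, Ptgs1 at 4.06, the inducible prostaglandin E synthase Ptges at 2.35, Ptgds at 1.92, Ptger4 at 1.44, Ptger3 at 1.12 and Ptger2 at 0.126. Between neighbours in this order the bounds overlapped, except from Ptges3 to Ptgs2 and from Ptges2 to Ptger1. Ptgds and Ptger2 had a lower bound of 0 in all 3 conditions of the authors' deposited table.

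**Figure D1:**
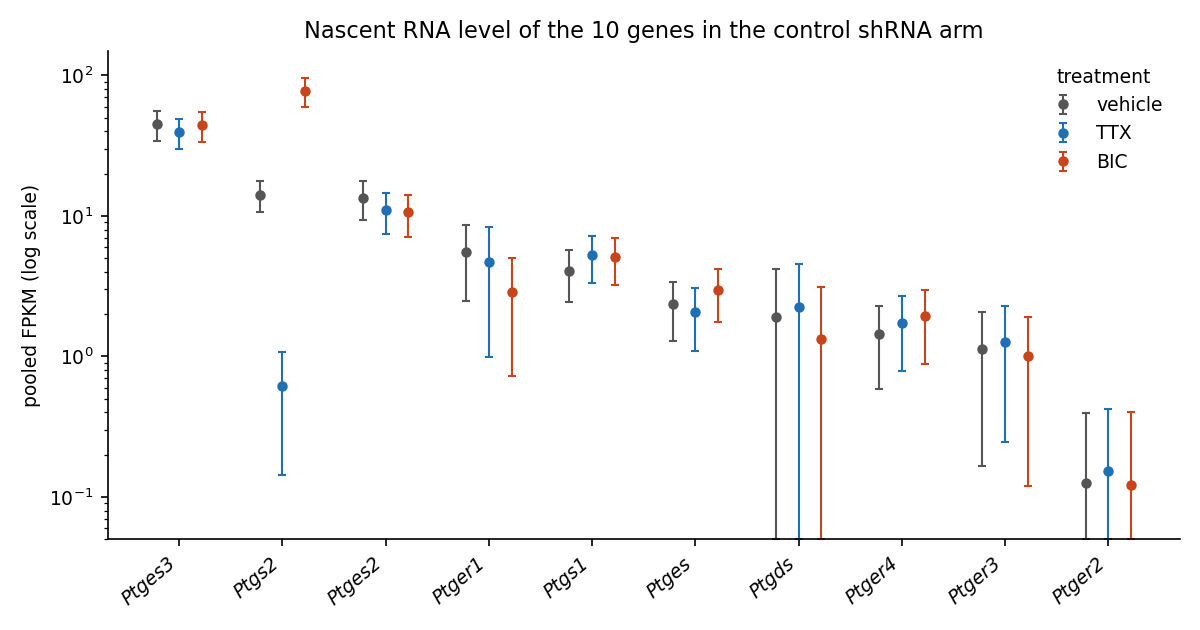
Pooled FPKM of the 10 genes on a log axis in the control shRNA arm with vehicle, TTX or BIC, from the authors' deposited table; bars are the authors' bounds, and bounds of 0 are drawn to the foot of the axis at 0.05. The bounds of Ptgs2 are separate in the 3 conditions, and those of every other gene overlap vehicle.

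The counts behind these genes were unequal. The authors' deposited mean normalized count over all libraries was 1357 for Ptges3, 610 for Ptgs2, 237 for Ptges2 and 198 for Ptger3, against a median of 107 over the 21192 genes tested. It was 26.5 for Ptges, 25.3 for Ptgs1 and 17.1 for Ptger1 in the authors' deposited tables, and under 10 for Ptger4 (7.20), Ptgds (5.99) and Ptger2 (2.50). The ratio of this count to FPKM times gene length, scaled to 1 for the median gene, lay between 0.843 and 1.44 for Ptges3, Ptger3, Ptgs2 and Ptges2. It was 0.0512 for Ptger1, 0.111 for Ptgs1 and 0.192 for Ptger4, for which count and FPKM differed most.

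Ptgs2 was turned down by TTX and up by BIC. The gene spans chr1:151947254-151955142 in the coordinates of the FPKM table (mm9, the build in the submitters' processing notes). Its FPKM in shCtrl in the authors' deposited table was 0.612 with TTX (bounds 0.144 and 1.08), 14.2 with vehicle and 77.7 with BIC (60.1 and 95.3). The 3 sets of bounds did not overlap: vehicle stood 23.2-fold over TTX, BIC 5.47-fold over vehicle and BIC 127-fold over TTX. Counted by gene in the authors' deposited comparison tables, the log2 change in shCtrl was -3.95 with TTX (SE 0.21, adjusted p = 3.40e-75), a 15.5-fold fall, and 2.28 with BIC (SE 0.16 and adjusted p = 3.62e-46), a 4.86-fold rise. Among 12333 genes with a mean count of at least 50 in the authors' deposited tables, Ptgs2 ranked 2 from the lowest under TTX and 36 from the highest under BIC.

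The same directions held in the shRai1 libraries. There the authors' deposited tables gave -2.46 with TTX (SE 0.18, adjusted p = 9.08e-40), a 5.49-fold fall, and 2.99 with BIC (SE 0.13, adjusted p = 1.26e-114), a 7.97-fold rise. From TTX to BIC the computed log2 difference was 6.24 (SE at most 0.26) in shCtrl and 5.45 (SE at most 0.22) in shRai1. These are spans of 75.3-fold and 43.8-fold. The TTX and BIC changes of an arm share its vehicle libraries, which is why these errors are upper bounds.

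Ptgs1, the other cyclooxygenase, spans chr2:36085946-36107791 (mm9) and was not called in any table. Its FPKM in the authors' deposited table was 4.06 with vehicle, 5.25 with TTX and 5.07 with BIC in shCtrl, with overlapping bounds. Its log2 change in the authors' deposited tables was 0.20 with TTX (95% interval -0.44 to 0.84) and 0.12 with BIC (-0.55 to 0.80) in shCtrl. In shRai1 the authors' deposited values were -0.46 with TTX (-1.05 to 0.13) and -0.08 with BIC (-0.67 to 0.50). The intervals leave out changes of the size of those of Ptgs2 under either drug. At a mean count of 25.3 they set no firm limit, because deposited changes of low genes are small, as if pulled toward 0.

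The terminal prostaglandin E synthases moved much less than Ptgs2. Ptges2, at chr2:32251410-32258260 (mm9), fell under both drugs in both arms. Its log2 change with TTX in the authors' deposited tables was -0.35 in shCtrl (SE 0.13, adjusted p = 0.0312) and -0.61 in shRai1 (SE 0.12, adjusted p = 1.98e-06). With BIC the authors' deposited tables gave -0.37 in shCtrl (SE 0.15, adjusted p = 0.0352) and -0.27 in shRai1 (SE 0.12, adjusted p = 0.0467). The BIC falls lay near the threshold and were lost when changes were centred on the median gene (adjusted p = 0.0710 and 0.0874). Its FPKM in the authors' deposited table was 13.5 with vehicle, 11.0 with TTX and 10.7 with BIC, with overlapping bounds.

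Ptges3, at chr10:127496038-127514310 (mm9), followed activity with small changes. Its FPKM in the authors' deposited table was 39.5 with TTX, 44.9 with vehicle and 44.2 with BIC in shCtrl, with overlapping bounds. In shRai1 it fell by 0.28 on the log2 scale with TTX (SE 0.077, adjusted p = 0.00171) and rose by 0.20 with BIC (SE 0.076, adjusted p = 0.0252) per the authors' deposited tables. In shCtrl the deposited changes were -0.19 (SE 0.088, adjusted p = 0.0891) and 0.21 (SE 0.097, adjusted p = 0.0728) per the authors' deposited tables, short of the threshold. Centred on the median gene, the BIC change in shCtrl passed it (0.26, adjusted p = 0.0257). Averaged over the arms, Ptges3 fell with TTX by 0.24 (SE 0.058, adjusted p = 0.000300) and rose with BIC by 0.21 (SE 0.062, adjusted p = 0.00249).

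Ptges, the form induced in inflammation, and Ptgds, which makes prostaglandin D2 and is abundant in meninges and glia, were not called in any table. The log2 changes of Ptges in the 4 drug tables deposited by the authors lay between -0.24 and 0.14, with SEs between 0.29 and 0.34. Those of Ptgds in the authors' deposited tables were -0.04 and -0.00 for TTX and BIC in shCtrl, and 0.52 and 0.08 in shRai1, with SEs of 0.42. At a mean count of 5.99 its 95% interval for TTX in shCtrl ran from -0.86 to 0.79. Deposited changes of low genes are small, as if pulled toward 0, so this interval sets no firm limit on the change. Ptgds had no adjusted p for TTX in either arm or for the knockdown in vehicle, so no call was possible for it there.

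Of the receptors, Ptger4 rose under BIC and Ptger3 fell under both drugs. Ptger4, at chr15:5183399-5194187 (mm9), rose in the authors' deposited tables by 1.51 on the log2 scale in shCtrl (SE 0.42, adjusted p = 0.00147) and by 1.59 in shRai1 (SE 0.41, adjusted p = 0.000439), a 2.84-fold and a 3.02-fold rise. With TTX the authors' deposited changes were -0.21 (95% interval -1.03 to 0.62) and -0.42 (-1.24 to 0.41), with no adjusted p. The rise rests on a mean count of 7.20. The pooled FPKM of Ptger4 in the authors' deposited table was 1.44 with vehicle, 1.73 with TTX and 1.94 with BIC, with bounds that overlap, a smaller difference than that of the counts. The 10 microglia markers, whose cells also carry this receptor, summed to 45.7 FPKM with vehicle, 38.3 with TTX and 72.4 with BIC in the authors' deposited table, and 3 of them rose under BIC in shCtrl and 2 in shRai1. Most of that sum came from Cd68 (23.6 FPKM with vehicle, 40.1 with BIC) and Cx3cr1 (14.7 and 21.8), in the authors' deposited table. With BIC 7 of the 10 read higher than with vehicle there, and 3 lower, which were Aif1, P2ry12 and Tmem119. The part of these markers in the Ptger4 result was not tested.

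Ptger3, at chr3:157229856-157307722 (mm9), fell with TTX in the authors' deposited tables by 0.46 on the log2 scale in shCtrl (SE 0.15, adjusted p = 0.0139) and by 1.10 in shRai1 (SE 0.14, adjusted p = 2.01e-14). With BIC it fell in the authors' deposited tables by 0.74 (SE 0.17, adjusted p = 0.000104) and by 0.70 (SE 0.13, adjusted p = 9.39e-07). It was thus highest in vehicle in both arms. The authors' deposited FPKM did not show this order: it was 1.12 with vehicle, 1.26 with TTX and 1.02 with BIC, with lower bounds of at most 0.244 and upper bounds of at least 1.91.

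Ptger1 and Ptger2 were not called in any drug table. Ptger2 had no adjusted p for TTX in either arm or for BIC in shCtrl, so no call was possible for it there. The deposited log2 changes of Ptger1 in the authors' tables were -0.45 with TTX and -0.76 with BIC in shCtrl (adjusted p = 0.394 and 0.109), and 0.17 and -0.17 in shRai1. Those of Ptger2 in the authors' deposited tables lay between 0.13 and 0.44, with SEs between 0.38 and 0.41 at a mean count of 2.50.

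**Figure D2:**
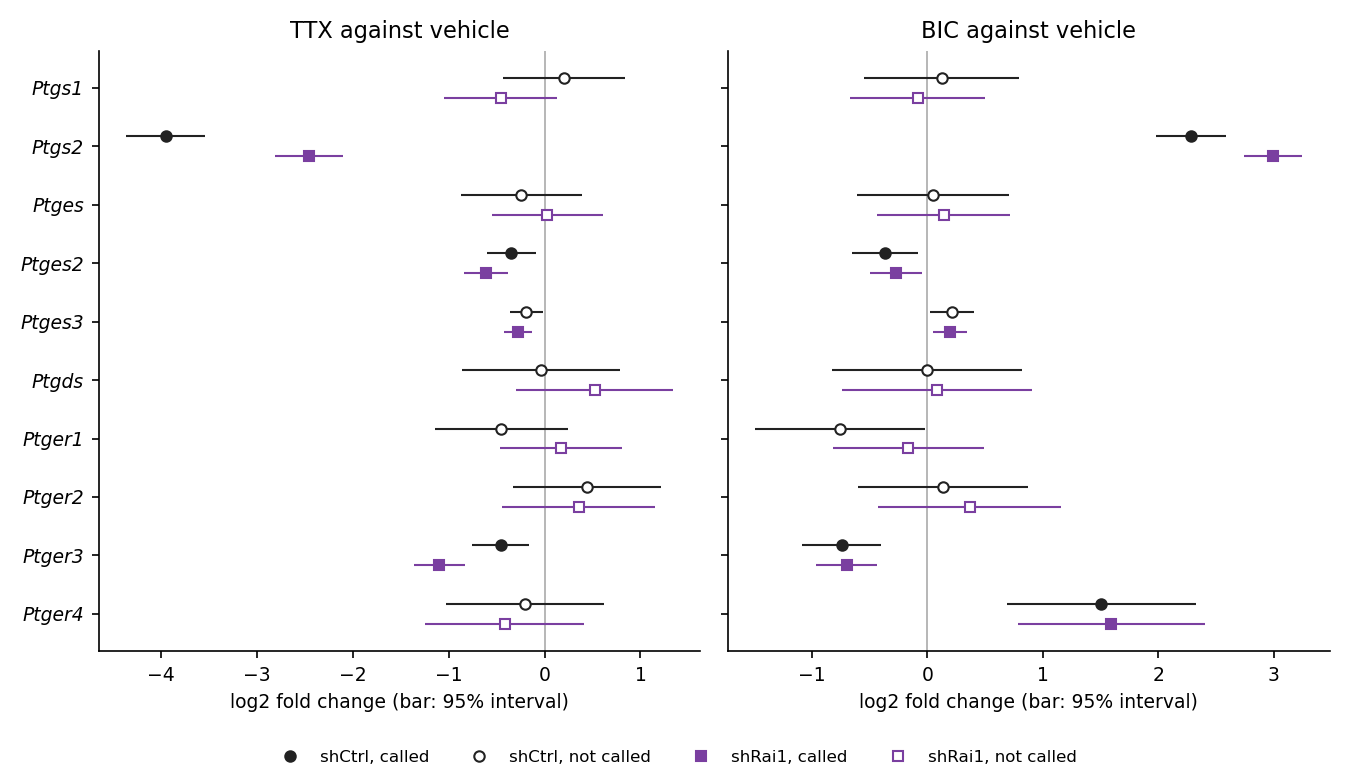
Log2 change of each of the 10 genes under TTX (left) and BIC (right) against vehicle in the shCtrl (circles) and shRai1 (squares) libraries, from the authors' deposited tables; bars are 95% intervals, filled marks have an adjusted p under 0.05, and open marks include genes without an adjusted p. Ptgs2 lies far to the left under TTX and far to the right under BIC in both arms, and Ptger4 to the right under BIC.

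Counted together, the genes called under TTX all fell. Of the 10, the authors' deposited tables had 3 falling with TTX in shCtrl (Ptgs2, Ptges2, Ptger3), where 19.5% of all tested genes were called and 10.9% fell, and 4 fell in shRai1 (Ptges3 in addition), where 22.3% were called and 12.3% fell. The 3 shCtrl calls were also called in shRai1 in the same direction. With BIC 2 rose and 2 fell in shCtrl in the authors' deposited tables, against 27.1% called over all genes, 13.7% higher and 13.4% lower. In shRai1 3 rose and 2 fell, against 35.1% called in the authors' deposited tables, 17.6% in each direction. The 4 BIC calls of shCtrl were 80% of the 5 in shRai1. How often calls were shared between arms over all genes was not computed, so this overlap is not read as particular to these genes. The median log2 change of the 10 genes in the authors' deposited tables was -0.22 for TTX and 0.08 for BIC in shCtrl, and -0.35 and 0.11 in shRai1, against 0.00, -0.00, -0.00 and 0.00 over all tested genes. With TTX in shCtrl the marker medians were -0.21 (neuron), -0.20 (astrocyte), -0.50 (oligodendrocyte lineage), -0.10 (microglia), 0.08 (endothelial) and 0.22 (leptomeningeal and fibroblast). In shRai1 those of the first 3 lists were 0.01, -0.01 and 0.47, by the authors' deposited tables. Their part in the median of the 10 genes was not tested. Averaged over the arms, 4 genes fell with TTX (33.1% of 18241 genes called, 17.5% lower), and with BIC 3 rose and 2 fell (46.0% called, 22.4% higher and 23.6% lower). From TTX to BIC Ptgs2, Ptges3 and Ptger4 were higher in both arms. Over all genes 32.4% were called in shCtrl, 17.1% of them higher as a share of all, and 39.5% in shRai1, with 20.3% higher. Among genes with a mean count of at least 50, to which 4 of the 10 belong, the authors' deposited tables called 32.1% and 43.6% for TTX and BIC in shCtrl, and 36.2% and 55.7% in shRai1. Of these 4 genes, the authors' deposited tables called 3 with TTX and 3 with BIC in shCtrl, and 4 with each drug in shRai1. These counts are a description of the genes.

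The knockdown contrast was called for 1 gene, Ptgs2, in vehicle. Ptgds, Ptger1, Ptger2 and Ptger4 had no adjusted p in that comparison, so no call was possible for them. The libraries labelled shRai1 with vehicle had, in the authors' deposited table, 51.7% of the shCtrl vehicle level, a log2 change of -0.95 (SE 0.15, 95% interval -1.25 to -0.66, adjusted p = 1.29e-06), where 0.576% of tested genes were called and 0.491% were lower. This change ranked 4 from the lowest of the 12333 genes with a mean count of at least 50 in the authors' deposited table. In TTX the authors' deposited change was 0.54 (SE 0.23, unadjusted p = 0.0194, adjusted p = 1.00) and in BIC -0.24 (SE 0.13, unadjusted p = 0.0715, adjusted p = 1.00). None of the 10 genes was called by the authors' DESeq2 test in TTX or BIC, where 0.0283% and 0.00944% of genes were, and 2 and 1 of them had an unadjusted p under 0.05, as had 3.30% and 2.93% of all tested genes. Averaged over the 3 treatments the change was -0.22 (SE 0.10, adjusted p = 1.00) and none of the 10 was called, against 0.00548% of genes, with 2 at an unadjusted p under 0.05, beside 4.12% of all. In the authors' deposited vehicle comparison, 4 of 9 oligodendrocyte-lineage markers also fell, with a median log2 change of -0.73 over the 9, and their part in the Ptgs2 value was not tested.

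**Figure D3:**
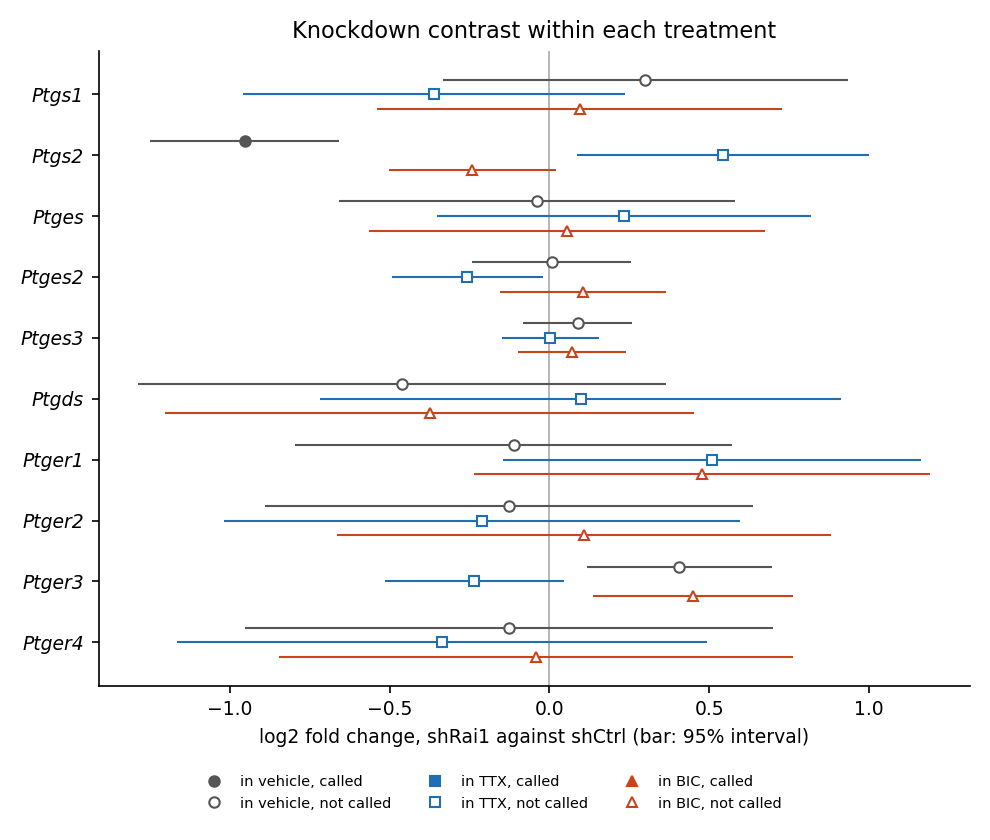
Log2 change of shRai1 against shCtrl for the 10 genes within vehicle (circles), TTX (squares) and BIC (triangles), from the authors' deposited tables; bars are 95% intervals and filled marks have an adjusted p under 0.05. The only filled mark is Ptgs2 in vehicle at -0.95.

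The responses of Ptgs2 to the drugs thus started from different vehicle levels. Subtracting the shCtrl TTX response from the shRai1 one gave 1.50 on the log2 scale (SE 0.28, 95% interval 0.95 to 2.04, adjusted p = 9.68e-05), a fall smaller by 2.82-fold in shRai1. It was called for 1 of the 10 genes, against 0.943% of 18241 genes, and ranked 3 from the highest among genes with a mean count of at least 50. The same number is the knockdown contrast in TTX minus that in vehicle, so it is not separate from the vehicle result. The 9 oligodendrocyte-lineage markers differed in the same direction: in the authors' deposited tables their median log2 change with TTX was -0.50 in shCtrl, where 4 fell, and 0.47 in shRai1, where 5 rose. Their part in the Ptgs2 difference was not tested. For BIC the difference was 0.71 (SE 0.20, 95% interval 0.31 to 1.11, unadjusted p = 0.000452, adjusted p = 0.485) and did not pass the test, as for the other 9 genes, with 0.0219% of genes called. At an unadjusted p under 0.05 stood 1 of the 10, beside 3.03% of all. Rebuilt from the deposited changes and set to 0 in shCtrl vehicle, the log2 level of Ptgs2 was -3.95 in shCtrl TTX and 2.28 in shCtrl BIC, and -0.95, -3.41 and 2.04 in shRai1 vehicle, TTX and BIC. The arms were thus farthest apart in vehicle.

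Ptger3 had the next smallest p among the 10 genes for the TTX interaction. Its difference was -0.64 (SE 0.20, 95% interval -1.04 to -0.24, unadjusted p = 0.00182, adjusted p = 0.112), which did not pass the test. Its knockdown change in the authors' deposited tables was 0.41 in vehicle (adjusted p = 0.206), -0.23 in TTX and 0.45 in BIC (both with an adjusted p = 1.00). For Ptges3 the knockdown changes in the authors' deposited tables were 0.09, 0.00 and 0.07, with 95% intervals that lie between -0.15 and 0.26. Ptges2 had 0.01 in vehicle, -0.26 in TTX and 0.11 in BIC, and Ptger4 -0.13, -0.34 and -0.04, in the authors' deposited tables.

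**Figure D4:**
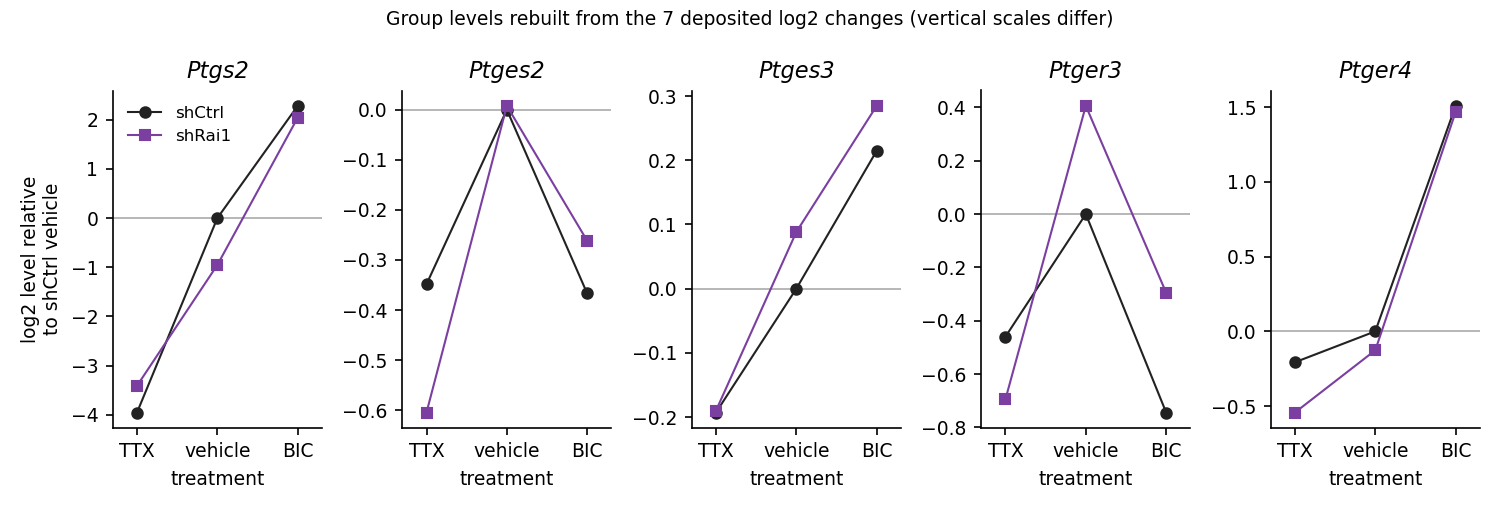
Log2 level of Ptgs2, Ptges2, Ptges3, Ptger3 and Ptger4 in the 6 groups relative to shCtrl vehicle, rebuilt from the authors' deposited log2 changes (vertical scales differ). Ptgs2 rises from TTX to BIC in both arms, with its arms farthest apart in vehicle, and Ptger3 is highest in vehicle in both arms.

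Likeness was measured as the Euclidean distance between centred log2 levels over the 6 groups, among 12332 other genes with a mean count of at least 50. The genes nearest to Ptgs2 were Adcyap1, which encodes the neuropeptide PACAP (distance 1.32), Acan, which encodes the matrix protein aggrecan (1.56), and Nts, the neurotensin precursor (1.61), against a median of 5.92 over all. Nearest to Ptges2 were Pcyt2, Hyou1 and Lhfp at 0.121 to 0.145, against a median of 0.742. Nearest to Ptges3 were Eif4a3, Fbxo34 and Ubp1 at 0.0379 to 0.0436 (median 0.672), and nearest to Ptger3 were Cpa6, Mnt and Ngfr at 0.245 to 0.306 (median 1.12). The distances rest on the same 16 libraries and say only which profiles are close.

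The other genes of the pathway were read from a list of phospholipases, lipases, synthases, dehydrogenases, transporters, receptors and lipoxygenases, of which 54 are in the tables and 52 were tested, 50 of them named in the vehicle knockdown table. With BIC 12 rose and 4 fell in shCtrl and 13 rose and 7 fell in shRai1 in the authors' deposited tables. These are 30.8% and 38.5% of the 52, beside 27.1% and 35.1% of all tested genes. Both arms gave the same direction for 15 of them, 93.8% of the 16 called in shCtrl and 75% of the 20 in shRai1. The matching share over all genes was not computed. With TTX 3 rose and 2 fell in shCtrl and 2 rose and 3 fell in shRai1 in the authors' deposited tables, 9.62% of the 52 in each arm, beside 19.5% and 22.3% of all tested genes. None was called in the 3 knockdown tables by the authors' DESeq2 test, with 2 at an unadjusted p under 0.05 in vehicle, beside 8.17% of all named genes, and 0 in TTX and BIC.

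Upstream of the cyclooxygenases, Pla2g4a, the cytosolic phospholipase A2 that releases arachidonic acid, moved as Ptgs2 did in shCtrl. Its log2 change in the authors' deposited tables was 1.33 with BIC (SE 0.24, adjusted p = 2.77e-07) and -0.74 with TTX (SE 0.25, adjusted p = 0.0146). In shRai1 the authors' deposited values were 1.76 (SE 0.22, adjusted p = 5.11e-15) with BIC and -0.27 (adjusted p = 0.443) with TTX. Daglb, a diacylglycerol lipase that makes 2-arachidonoylglycerol, rose with BIC by 1.09 in shCtrl and 1.08 in shRai1 and fell with TTX by 0.37 and by 0.41 in the authors' deposited tables. Mgll, the monoacylglycerol lipase that turns 2-arachidonoylglycerol into arachidonic acid, fell with BIC by 1.36 (SE 0.097) and by 1.46 (SE 0.076) per the authors' deposited tables. Pla2g4e, a phospholipase of the same family as Pla2g4a that acts as an N-acyltransferase, fell with BIC by 1.16 and by 1.13 in the authors' deposited tables.

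Downstream, genes that remove or carry prostaglandins went both ways with BIC. Hpgd, the dehydrogenase that inactivates prostaglandin E2, rose by 1.83 in shCtrl (SE 0.33) and 1.38 in shRai1 (SE 0.29) per the authors' deposited tables, and is listed at 0 FPKM in shCtrl vehicle. Slco2a1, the prostaglandin transporter that takes them up, rose by 1.23 (SE 0.34) and 1.34 (SE 0.30) per the authors' deposited tables. Abcc4, an exporter of prostaglandins, fell by 0.28 (SE 0.095, adjusted p = 0.0122) and by 0.30 (SE 0.075, adjusted p = 0.000289), and the reductase Ptgr2 had -0.14 and -0.21 with no call, by the authors' deposited tables. The listed interval of Abcc4 overlaps that of Mir6391. Akr1c18, an aldo-keto reductase, rose by 0.88 and 1.11, and Hpgds, a second prostaglandin D synthase found in microglia, by 1.45 and 1.20 in the authors' deposited tables. The microglia markers given beside Ptger4 also summed higher with BIC (45.7 FPKM with vehicle and 72.4 with BIC by the authors' deposited table), and their part in the Hpgds rise was not tested. Fam213b, a prostaglandin F synthase, fell by 1.43 (SE 0.34) and by 1.01 (SE 0.29) with BIC in the authors' deposited tables. Of the lipoxygenases, Aloxe3 rose by 2.12 and 2.07 and Alox8 by 0.69 and 0.63 in the authors' deposited tables. The count-to-FPKM ratio, 1 for the median gene, was low for Hpgds (0.0469), Slco2a1 (0.212) and Alox8 (0.227).

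**Figure D5:**
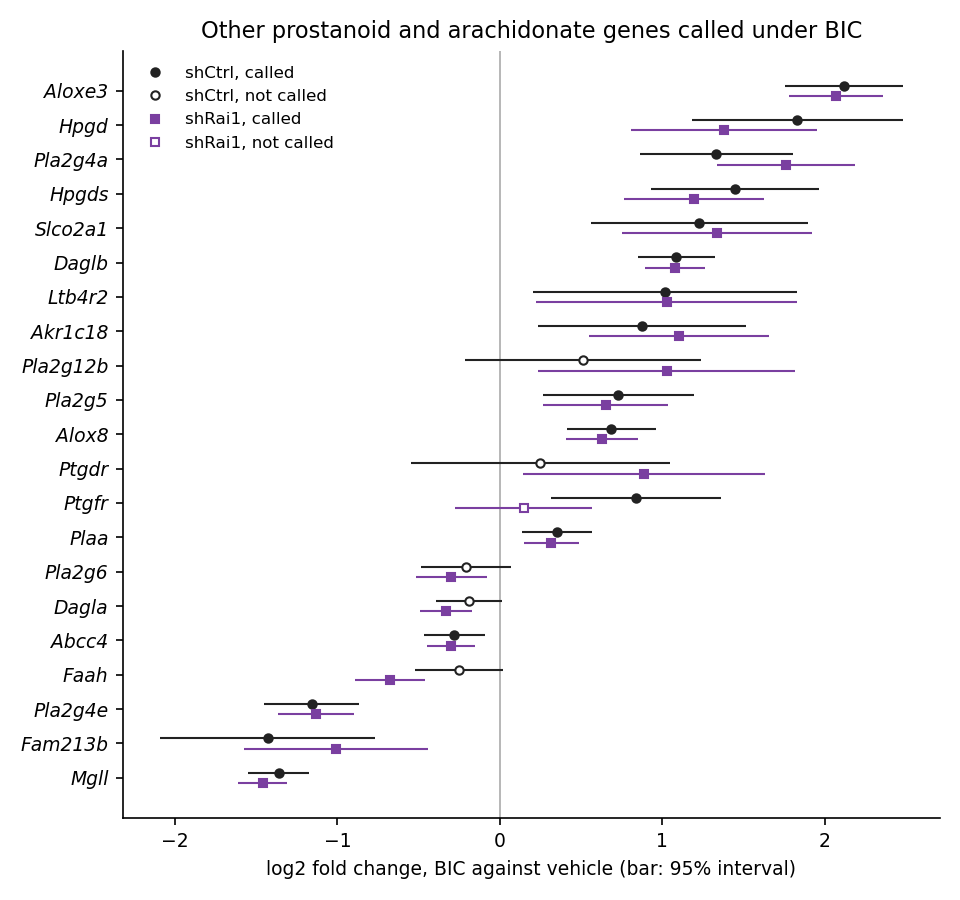
Log2 change under BIC in shCtrl (circles) and shRai1 (squares) of the 21 other prostanoid and arachidonate genes called in at least 1 arm, from the authors' deposited tables; bars are 95% intervals and filled marks have an adjusted p under 0.05. Aloxe3 stands highest, and Mgll, Fam213b and Pla2g4e lowest.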

How the data were processed

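The 16 Bru-seq libraries were grouped by their labels into 6 conditions, and 12 ChIP-seq samples were left aside. Per the submitters' processing notes the tools include TopHat2 2.1.0, Bowtie2 2.2.6 and DESeq2. The authors deposited 7 comparison tables with a mean normalized count (a signal scaled over libraries), a log2 change, its SE, a Wald score, its p-value and the p-value adjusted over genes, and a table of pooled FPKM with bounds, per the file headers. The deposited log2 changes of low genes are small, as after shrinkage: with a mean count under 1 none exceeds 0.79 in size.

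The vehicle knockdown table has no gene column, so its genes were named here by their unique mean count (20107 named, 1085 not), which was checked by closure of the log2 changes. Knockdown FPKM columns were not used for levels, as their names did not follow the shRai1 tables. Interactions, averages and BIC against TTX were computed here as sums of deposited log2 changes, with two-sided Wald tests and Benjamini-Hochberg adjustment over the 18241 genes averaging 0.1 FPKM or more (numpy 2.4.6, scipy 1.17.1), and tested on simulated data. Replicates are biological ones, each from its own pool of embryos, per the series' design text, which does not say whether a replicate number shared between groups marks 1 preparation. The numbers were 1 and 2 in shCtrl vehicle, 2 and 3 in shCtrl BIC, and 1, 2 and 3 in each other group. A part of preparation in the shCtrl BIC changes was not tested. Named genes were the 10 members, other pathway genes called in a table and the 3 nearest genes of each called member with a mean count of at least 50. The members and lists were chosen with earlier results of these data known.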

Additional observations from a re-analysis of the deposited data

Results flagged for a closer look

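The TTX response of Ptgs2 differed between the arms by the interaction test: that in shRai1 minus that in shCtrl was 1.50 on the log2 scale (SE 0.28, adjusted p = 9.68e-05). The fall was 15.5-fold in shCtrl and 5.49-fold in shRai1 in the authors' deposited tables. By the authors' deposited tables, the median log2 change of the 9 oligodendrocyte-lineage markers with TTX was -0.50 in shCtrl and 0.47 in shRai1, and their part in the difference was not tested. The shCtrl vehicle group held 2 libraries, and no value per library was available to show whether 1 of them carries the difference.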

How the results depend on the processing

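With an adjusted p under 0.01 the genes called with TTX in shCtrl went from 3 to 1 and those with BIC in shRai1 from 5 to 3. The other 61 counts stayed within 1.5 times of their value, under the alternatives tried. Centring on the median gene, which removes medians between -0.0438 and 0.0106, turned Ptgds with BIC in shCtrl from -0.00 to 0.0427, ended both BIC calls of Ptges2 and gave Ptges3 a BIC call in shCtrl (0.26, adjusted p = 0.0257). As ratios of pooled FPKM, Ptger3 with TTX in shCtrl was 0.15 with a pseudocount of 0.1 and 0.0895 with 1, against the deposited -0.46. With BIC in shCtrl and a pseudocount of 0.1, Ptges3 was -0.0233 (deposited 0.21), Ptger4 0.41 (deposited 1.51) and Ptger3 -0.13 (deposited -0.74). Of the FPKM ratios of single genes in shCtrl, 26 were scored as the same, 12 as moved and 2, those of Ptger3 with TTX, as reversed. Of the tests of single genes, 705 kept direction and call, 22 lost the call, 1 gained it and 1 reversed; the cause was not tested. No paired analysis was possible because the files hold no values per library, and leaving out each replicate was not run for the same reason. The depth of single libraries is unknown, and counts under 10 limit Ptger4, Ptgds and Ptger2.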

Other observations

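In the authors' deposited FPKM table the knockdown columns for Ptgs2 read 1.29 in the one named untreated, 8.90 in the one named Bic and 62.5 in the one named TTX. Across 12311 genes the log2 ratios of the knockdown columns correlated with the shRai1 comparison tables at r = -0.633 for TTX and 0.262 for BIC, against 0.723 and 0.759 for the shCtrl columns (across genes, which are not independent).

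Ptgfr, the prostaglandin F2-alpha receptor, rose with BIC in shCtrl by 0.84 (SE 0.27, adjusted p = 0.00668) and had 0.15 (SE 0.22, adjusted p = 0.639) in shRai1 in the authors' deposited tables. Its count-to-FPKM ratio was 0.178 of that of the median gene. The difference of -0.69 did not pass the test (SE 0.34, unadjusted p = 0.0443, adjusted p = 1.00). Faah, the fatty acid amide hydrolase, rose with TTX in shCtrl by 0.34 and fell with BIC in shRai1 by 0.67 in the authors' deposited tables, and neither of its differences between arms passed the test.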
